A study of Mus musculus with 11 samples.

Results

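A set of 33 genes for protein folding and stress in the endoplasmic reticulum (ER) was followed in RNA from isolated mouse glomeruli. The genes were taken by symbol from a written list, with counts summed per symbol, and 33 of 33 were found among the 13734 genes of the deposited count table. Values are given as CPM, a gene's counts relative to its library's total, scaled between libraries with TMM factors.

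The animals were db/m mice, which carry 1 db allele of the leptin receptor and served as littermate controls, and db/db mice, which carry 2 and become obese and diabetic. All were on 5% DMSO by gavage from 10 weeks of age for 6 weeks, and 1 group of db/db mice received puerarin, a plant isoflavone glycoside, in that vehicle at 20 mg/kg per day. The groups were db/m vehicle (n = 4), db/db vehicle (n = 4) and db/db puerarin (n = 3), with no db/m group on puerarin among those compared here. The text of the labels gives the BKS background and male mice, while their strain entry names C57BL/6J; the labels do not say whether a library is 1 mouse or a pool.

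The ER folds membrane and secreted proteins, and podocytes of the glomerulus make large amounts of both, among them slit diaphragm and basement membrane proteins. When unfolded proteins accumulate there, the sensors Ire1 (gene Ern1), Atf6 and Perk (gene Eif2ak3) are released from the chaperone BiP (gene Hspa5) and start the unfolded protein response. Ire1 splices the Xbp1 message, Atf6 is cut to a transcription factor and Perk slows translation, and the outcome is more chaperone, more degradation capacity and less protein load.

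Atf6 and spliced Xbp1 are known to act through ER stress elements, so the promoter windows of the members were searched for them. The windows came from RefSeq (build GRCm38.p6) and spanned 250 bases before to 50 after a gene's start; 27 of the 33 members had one. The elements, searched on both strands, were ERSE (CCAAT, 9 bases of any kind, CCACG), ERSE-II (ATTGG, 1 base of any kind, CCACG) and UPRE (TGACGTGG). ERSE was present in 8 members (29.6% of the 27) against 39 of all 32851 windows (0.119%). ERSE-II was present in Herpud1 and Dnajb11 against 12 windows in all (0.0365%), and UPRE in Vcp alone against 222 windows (0.676%). The Dnajb11 element lay within the 50 bases after the start, and that of Herpud1 before the start. A match is a description of the letters, not a measured binding site. Below are the stretches of 4 members whose levels are described further on, each read along the gene's strand with 10 flanking bases and the element in capitals; those of Hspa5, Canx and Creld2 hold ERSE, on the opposite strand in Creld2, and that of Herpud1 holds ERSE-II.
Hspa5: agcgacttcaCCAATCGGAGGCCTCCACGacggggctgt
Canx: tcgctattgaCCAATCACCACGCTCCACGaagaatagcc
Creld2: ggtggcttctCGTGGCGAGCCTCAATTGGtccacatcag
Herpud1: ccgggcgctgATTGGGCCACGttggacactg

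The Hspa5 stretch lies at chr2:34772015-34772053 on the plus strand, 65 to 47 bases before the start for the element itself. The Canx stretch lies at chr11:50325790-50325828 on the minus strand, the Creld2 stretch at chr15:88819510-88819548 on the plus strand and the Herpud1 stretch at chr8:94386367-94386397 on the plus strand. The other members with ERSE were Calr, Dnajc3, Hsp90b1 (with a pair of elements), Pdia6 and Syvn1.

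Of the libraries, 5 were titled with an S number and 6 with a tag of the group plus a number, and the labels do not say what this stands for. 2 sequencing sites are named, and the labels do not say which of them made which library. Both forms occurred in every group, and the form was a term in the main test. Of the puerarin libraries, 2 and 3 had Xist at 528.5 and 819.0 CPM and Ddx3y at 3.06 and 0.909 CPM, whereas the other 9 libraries had Xist at 0.519 to 6.47 CPM and Ddx3y at 50.3 to 85.2 CPM, although the labels call the mice male. Results of the puerarin comparisons are therefore also given without both of them, which leaves puerarin S144 alone. Summed podocyte markers (12 genes) ran from 12963.0 to 19095.7 CPM over the 11 libraries, and those of glomerular endothelium (10 genes) from 3608.3 to 7512.2 CPM. Tubule markers were also present: proximal tubule (15 genes) at 1078.4 to 8197.0 CPM, loop and distal tubule (9 genes) at 1641.0 to 12455.0 CPM and collecting duct (9 genes) at 92.3 to 793.6 CPM. Total counts were 35369703 to 44244460 per library.

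To compare levels between genes, CPM was divided by the length of the most counted transcript (CPM per kb). In db/m vehicle, the most abundant members were the lectin chaperone Calr at 376.6 ± 24.3 CPM per kb (SD, n = 4) and the Hsp90 of the ER, Hsp90b1, at 315.6 ± 39.1. P4hb, the classical protein disulfide isomerase, followed at 231.7 ± 10.8, Hspa5 at 212.7 ± 30.7 and Pdia3, the isomerase that works with the lectin chaperones, at 205.5 ± 13.4. These last 3 differed by less than the spread of Hspa5. The stress sensors were the lowest: Atf6 had 12.7 ± 1.76, Eif2ak3 11.2 ± 0.701 and Ern1 6.67 ± 0.489 CPM per kb. The 3 sensors were the lowest of the 33 members in db/db vehicle and under puerarin as well.

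**Figure D1:**
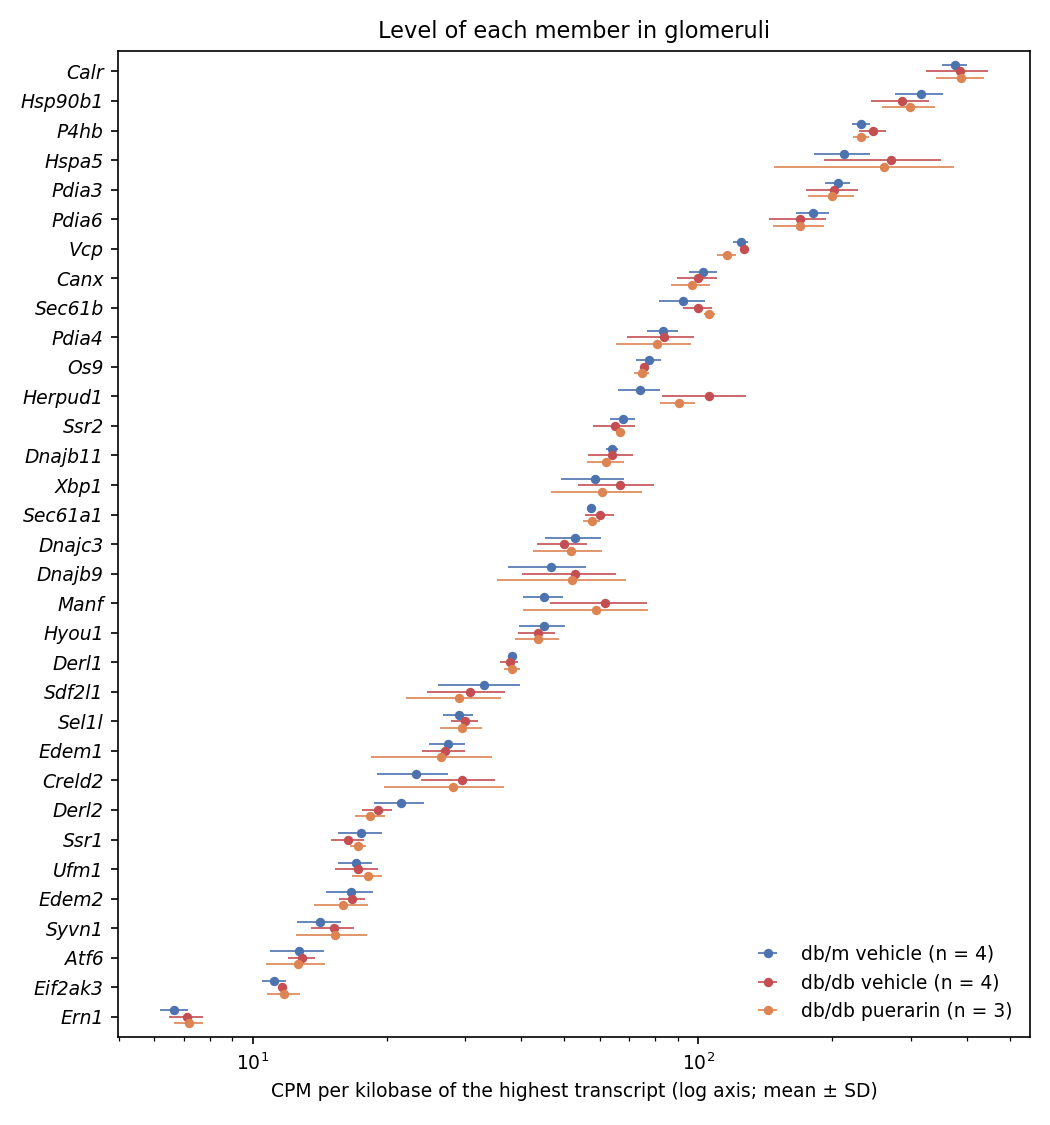
Level of each member in CPM per kilobase of its highest transcript (horizontal log axis), as mean ± SD of db/m vehicle (n = 4), db/db vehicle (n = 4) and db/db puerarin (n = 3). Calr is at the top with 376.6 CPM per kb in db/m and Ern1 at the bottom with 6.67, and the group means of a member lie close together beside the range between members.

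In db/db against db/m on vehicle, the median of the members stayed near the control level. The 95% interval of the difference stayed within 1.5-fold for 29 of 33 members, with bounds from -0.55 to 0.85 on the log2 scale. It reached further for Herpud1 (up to 0.85), Manf (0.82), Creld2 (0.79) and Hspa5 (0.76). 0 of 33 members passed the test across all genes (edgeR quasi-likelihood, adjusted p under 0.05), a threshold that 0.0437% of all genes passed. 2 members, Herpud1 and Manf, had an unadjusted p under 0.05, both higher in db/db, which is 6.06% of the members against 10.3% of all genes. The median log2 fold change was 0.019 over the members and 0.015 over all genes, and 18 members were higher and 15 lower. Within 0.1 of no change on the log2 scale were 63.6% of the members and 42.8% of all genes. No member had all 4 db/db vehicle libraries above all 4 db/m libraries, against 2.48% of all genes. In a bulk sample, fewer cells of a type and less RNA per cell cannot be told apart, and this holds for each difference below.

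Herpud1 encodes an ER membrane protein that helps assemble the degradation complex (chromosome 8, 94386500 to 94395358 in mm10, plus strand). Its CPM in db/m vehicle was 97.6 (S184), 85.0 (S185), 88.7 (2) and 73.1 (3). In db/db vehicle it was 120.1 (S152), 132.3 (S153), 89.0 (1) and 152.1 (3). Under puerarin it was 116.9 (S144), 101.9 (2) and 96.8 (3). Of the db/db vehicle libraries, 3 lay above the whole db/m range and library 1 lay within it. The log2 fold change of db/db over db/m was 0.52 (SE 0.15), with an edgeR adjusted p of 0.242. It was 0.47 in the S-number and 0.53 in the group-tag libraries, each from 2 libraries against 2. The group-tag value rested mainly on db/db vehicle 3 at 152.1 CPM. In each form both vehicle-treated db/db libraries lay above both db/m libraries, by a narrow margin in the group-tag form (db/db vehicle 1 at 89.0 against db/m 2 at 88.7 CPM). This held for 1 of 33 members (3.03%), against 5.32% of all genes.

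Manf encodes a small ER protein that binds BiP and can be secreted (chromosome 9, 106887415 to 106891938, minus strand). Its CPM was 56.1 (S184), 66.1 (S185), 68.1 (2) and 56.9 (3) in db/m vehicle. It was 90.6 (S152), 111.7 (S153), 63.2 (1) and 74.7 (3) in db/db vehicle, and 106.2 (S144), 54.0 (2) and 82.7 (3) under puerarin. The 3 S-number db/db libraries, treated or not, were the highest of the 11. The log2 fold change of db/db over db/m on vehicle was 0.43 (SE 0.18; edgeR adjusted p 0.442), from 0.72 in the S-number libraries and 0.14 in the group-tag libraries.

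Hspa5 encodes BiP, the main Hsp70 of the ER lumen, whose message is the usual readout of ER stress (chromosome 2, 34772090 to 34776529, plus strand). The table lists it as a pair of transcripts with nearly the same reads, so its sum counts most reads more than once. Its summed CPM was 560.2 (S184), 741.2 (S185), 737.8 (2) and 601.6 (3) in db/m vehicle. It was 856.7 (S152), 1190.2 (S153), 673.2 (1) and 657.1 (3) in db/db vehicle, and 1217.7 (S144), 533.0 (2) and 683.5 (3) under puerarin. As for Manf, the 3 S-number db/db libraries were the highest. The log2 fold change of db/db over db/m was 0.30 (SE 0.21, 95% interval -0.16 to 0.76; edgeR adjusted p 0.666), being 0.65 in the S-number libraries and -0.00 in the group-tag libraries.

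Creld2 encodes an ER stress-induced protein with isomerase activity. Its CPM was 15.5 (S184), 18.8 (S185), 23.4 (2) and 20.9 (3) in db/m vehicle, 24.8 (S152), 31.7 (S153), 20.7 (1) and 23.1 (3) in db/db vehicle, and 30.9 (S144), 16.1 (2) and 24.9 (3) under puerarin. Here S153 and S144 were the highest, with S152 just under puerarin 3. Over db/m, db/db vehicle was at 0.33 on the log2 scale (SE 0.21; edgeR adjusted p 0.633). Derl2, a member of the channel family for exporting misfolded proteins, had the lowest log2 value of the comparison at -0.18 (SE 0.10), and the edgeR adjusted p was 0.605. In CPM it had 174.6, 206.0, 211.8 and 162.4 in db/m vehicle (S184, S185, 2, 3), 182.4, 166.4, 155.7 and 164.5 in db/db vehicle (S152, S153, 1, 3), and 170.2, 167.1 and 145.8 under puerarin (S144, 2, 3). The groups overlapped for both genes.

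**Figure D2:**
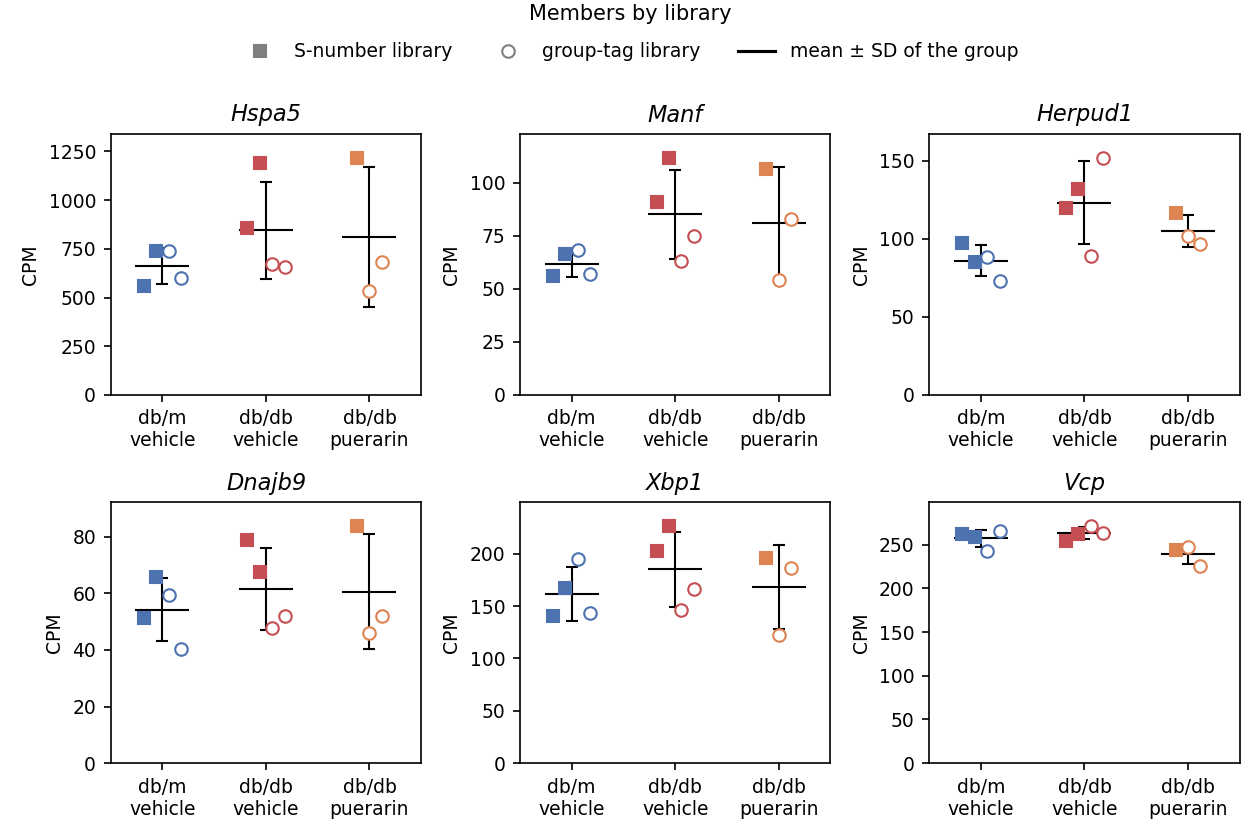
CPM (vertical axes, from 0) of 6 members in every library by group; filled squares are S-number libraries, open circles group-tag libraries, and the black bar and whiskers the mean ± SD of the group. For Hspa5 the S-number db/db libraries reach 856.7 to 1217.7 CPM while the group-tag libraries of every group lie at 533.0 to 737.8, and for Vcp the puerarin libraries lie below those of db/db vehicle.

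The messages of the stress sensors differed little between the groups, and the state of the sensor proteins was not measured. Ern1, the Ire1 gene, had 18.0, 17.1, 16.1 and 14.7 CPM in db/m vehicle (S184, S185, 2, 3), 17.8, 16.8, 16.3 and 19.7 in db/db vehicle (S152, S153, 1, 3), and 19.6, 16.7 and 17.2 under puerarin (S144, 2, 3). Atf6 had 63.1, 68.5, 55.6 and 48.3 CPM in db/m vehicle, 61.4, 61.1, 64.1 and 54.3 in db/db vehicle, and 68.6, 57.0 and 50.2 under puerarin, in the same order. Eif2ak3, the Perk gene, had 33.8, 38.8, 36.2 and 32.9 CPM in db/m vehicle, 36.5, 37.0, 36.2 and 37.5 in db/db vehicle, and 40.0, 34.4 and 33.6 under puerarin. All 3 sensors overlapped between all groups, and their log2 fold changes in db/db over db/m, with that of Xbp1, lay between 0.045 for Atf6 and 0.176 for Xbp1. Within the S-number libraries the log2 difference was -0.10 for Atf6, -0.02 for Ern1 and 0.02 for Eif2ak3. Within the group-tag libraries it was 0.19, 0.22 and 0.09.

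Xbp1, whose spliced message encodes an active transcription factor, had 140.5 (S184), 167.5 (S185), 195.0 (2) and 143.0 (3) CPM in db/m vehicle. It had 202.1 (S152), 226.4 (S153), 146.5 (1) and 165.9 (3) CPM in db/db vehicle, and 196.2 (S144), 122.1 (2) and 185.9 (3) under puerarin. The S-number db/db libraries were again the highest, by a narrow margin over db/m 2. The table lists a pair of Xbp1 transcripts that differ by 26 bases in length, the length of the piece Ire1 removes, and their counts had a ratio of 0.9981 to 1.0033 in every library. Nearly all reads were thus counted for both, and spliced and unspliced Xbp1 cannot be told apart in these counts.

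Puerarin against vehicle in db/db mice gave small differences. 0 of 33 members passed edgeR's test at an adjusted p under 0.05, as did 0% of all genes. 0 had an unadjusted p under 0.05 by edgeR or by DESeq2, against 4.21% of all genes in edgeR. The median log2 fold change was -0.01 over the members and -0.02 over all genes, and 13 members were higher and 20 lower. For all 33 members the 95% interval of the difference stayed within 1.5-fold, with bounds from -0.57 to 0.49 on the log2 scale. Without both puerarin libraries of high Xist, the median was 0.12; this rests on puerarin S144 alone, so no test is given.

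Vcp, the cytosolic ATPase that pulls proteins out of the ER membrane, was the member with the smallest p. Its CPM was 254.3, 262.4, 271.3 and 263.2 in db/db vehicle (S152, S153, 1, 3), 243.7, 246.8 and 225.8 under puerarin (S144, 2, 3), and 261.9, 258.5, 242.3 and 265.4 in db/m vehicle (S184, S185, 2, 3). All 3 puerarin libraries lay below all 4 vehicle-treated db/db libraries, with a log2 difference of -0.14 (SE 0.07) and an edgeR adjusted p of 0.967. It was the 1 member so separated, or 3.03%, against 1.72% of all genes. Without both libraries of high Xist it was -0.09. Herpud1 differed by -0.21 under puerarin (SE 0.16; edgeR adjusted p 0.967), and by -0.12 without them. Manf differed by -0.01 (95% interval -0.44 to 0.41) and Hspa5 by -0.01 (95% interval -0.50 to 0.49).

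The next members by p were P4hb, Sec61b and Ssr1. P4hb had 387.0, 360.1, 342.7 and 373.3 CPM in db/m vehicle, 383.1, 433.4, 375.7 and 373.2 in db/db vehicle, and 384.2, 364.0 and 349.1 under puerarin, in the order of libraries used above. Sec61b, a small subunit of the channel through which proteins enter the ER, had 37.4, 27.9, 30.8 and 31.1 CPM in db/m vehicle, 35.6, 37.2, 31.3 and 33.8 in db/db vehicle, and 37.9, 35.1 and 36.0 under puerarin. Ssr1, a subunit of the complex beside that channel, had 98.8, 117.5, 100.7 and 88.2 CPM in db/m vehicle, 100.6, 96.9, 100.3 and 83.1 in db/db vehicle, and 104.0, 100.4 and 95.2 under puerarin. All 3 genes overlapped between the treatments, with log2 differences of -0.08 (SE 0.08) for P4hb, 0.10 (SE 0.10) for Sec61b and 0.09 (SE 0.10) for Ssr1, each at an edgeR adjusted p of 0.967.

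Puerarin-treated db/db mice were also set against db/m vehicle, a comparison that shares its libraries with the other group comparisons. 0 of 33 members passed edgeR's adjusted test, against 0.182% of all genes. 0 had an unadjusted p under 0.05 by edgeR or DESeq2, against 10.3% of all genes in edgeR. The median log2 fold change was 0.01 over the members and -0.01 over all genes. The 95% interval of the difference stayed within 1.5-fold for 28 of 33 members, with bounds from -0.67 to 0.83 on the log2 scale. Manf was at 0.41 (SE 0.19; edgeR adjusted p 0.505), Herpud1 at 0.31 (SE 0.16; 0.567), Sec61b at 0.21 (SE 0.10; 0.517), Derl2 at -0.22 (SE 0.11; 0.560) and Vcp at -0.10 (SE 0.07; 0.722). Without both libraries of high Xist, which leaves S144 alone and so no test of its own, the median was 0.12, Manf was at 0.66, Herpud1 at 0.40 and Sec61b at 0.21.

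Single libraries stood apart within the groups. The mean over members of log2 CPM, relative to each gene's mean over the 11 libraries, was 0.19 in db/db vehicle S153 and 0.19 in puerarin S144. It was 0.06 in db/db vehicle S152 and between -0.14 and 0.04 in the other 8 libraries. Db/db vehicle S153 held the highest value of 13 members and puerarin S144 that of 7, while puerarin 2 held the lowest value of 9. These counts were not made over all genes, so no share is set beside them. The same mean level over all genes was 0.02 in S153, -0.07 in S144 and 0.01 in puerarin 2. The chaperones and co-chaperones had a summed CPM of 2564.8 in S153 and 2612.9 in S144 against 1588.5 to 2068.2 in the others. Of these sums, Hspa5 alone gave 1190.2 in S153 and 1217.7 in S144, against 533.0 to 856.7 in the others. Most of its reads count more than once.

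**Figure D3:**
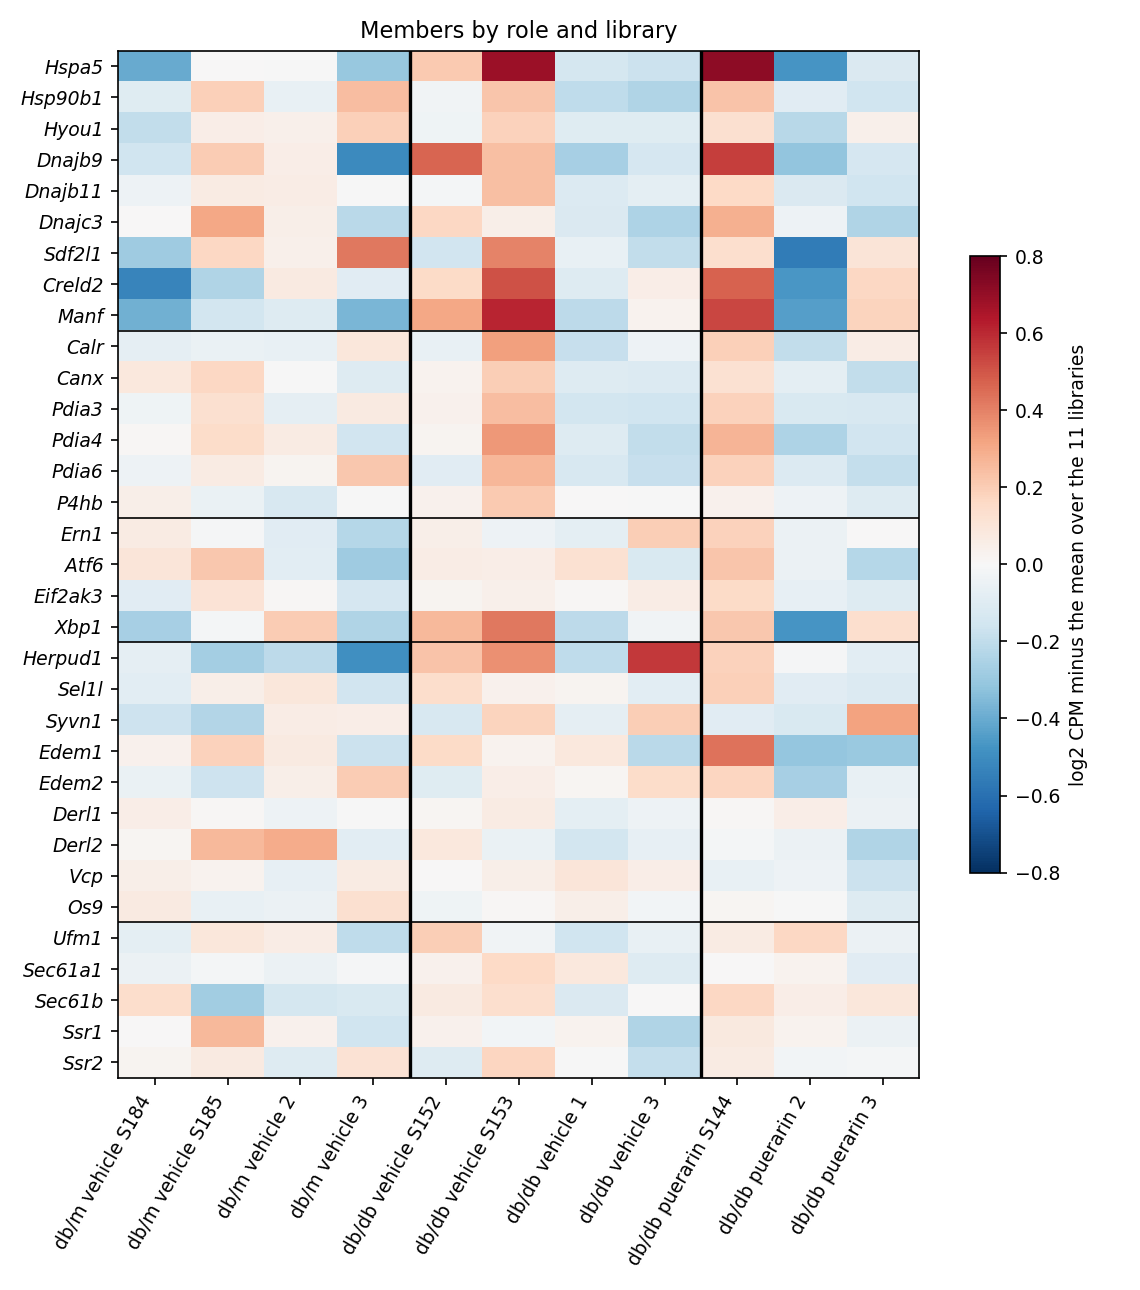
Colour gives log2 CPM of each member (rows, by role: chaperones and co-chaperones, lectin chaperones and isomerases, sensors and Xbp1, degradation, Ufm1 and translocon) minus its mean over the 11 libraries (columns, by group). The columns of db/db vehicle S153 and puerarin S144 are red for most chaperones and isomerases, and Derl1, Vcp and Os9 are pale throughout.

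All 3 S-number db/db libraries lay above the other 8 libraries for Hspa5, Dnajb9, Manf and Xbp1. These are 4 of 33 members (12.1%), against 1.99% of all genes. The layout was noticed in the values and then counted, so it is a description. Within the S-number libraries alone, 8 members had both db/db vehicle libraries above both db/m libraries (Hspa5, Dnajb9, Creld2, Manf, Xbp1, Herpud1, Syvn1 and Sec61a1), which is 24.2% against 18.8% of all genes. Within the group-tag libraries, 3 members did (Ern1, Herpud1 and Sec61b), which is 9.09% against 15.4% of all genes, and 7 had both below (Hsp90b1, Hyou1, Dnajb11, Sdf2l1, Canx, Pdia3 and Pdia6), which is 21.2% against 13.3% of all genes. In the S-number libraries 1 member, Atf6, had both below, which is 3.03% against 19.7% of all genes.

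The difference between the name forms in the db/db effect on vehicle was tested as an interaction. 0 of 33 members passed edgeR's adjusted test, against 0.0218% of all genes, and 1 member (Creld2) had an unadjusted p under 0.05, against 3.33% of all genes. The effect was more negative in the group-tag libraries for 26 of 33 members, with a median of -0.11 against 0.03 over all genes. For the chaperones and co-chaperones this held for 9 of 9, with a median of -0.37, and for the lectin chaperones and isomerases for 6 of 6, with a median of -0.24. Marker lists moved in this interaction too: myeloid markers were higher for 13 of 13, all at an unadjusted p under 0.05 (median 2.76), proximal tubule markers were higher for 15 of 15 (median 1.19) and podocyte markers were lower for 11 of 12 (median -0.17). Summed myeloid CPM was 195.1 to 200.2 in S-number and 343.1 to 1280.3 in group-tag db/db vehicle libraries, and 248.1 to 299.9 and 118.6 to 151.1 in those of db/m. Without db/db vehicle 1, the library with the most, the members' median was -0.19 and 0 had an unadjusted p under 0.05. The part of the other cells in this difference was not tested. Creld2 had -0.74 (SE 0.32), Hspa5 -0.66 (SE 0.30), Xbp1 -0.59 (SE 0.32), Manf -0.58 (SE 0.31) and Pdia6 -0.36 (SE 0.20), each at an edgeR adjusted p of 1. Pdia6, a disulfide isomerase, had 222.0, 238.8, 231.7 and 264.7 CPM in db/m vehicle (S184, S185, 2, 3), 214.4, 274.2, 208.6 and 200.5 in db/db vehicle (S152, S153, 1, 3), and 259.6, 211.3 and 200.4 under puerarin (S144, 2, 3), in which db/m and db/db vehicle overlapped among S-number libraries and did not among group-tag libraries.

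**Figure D4:**
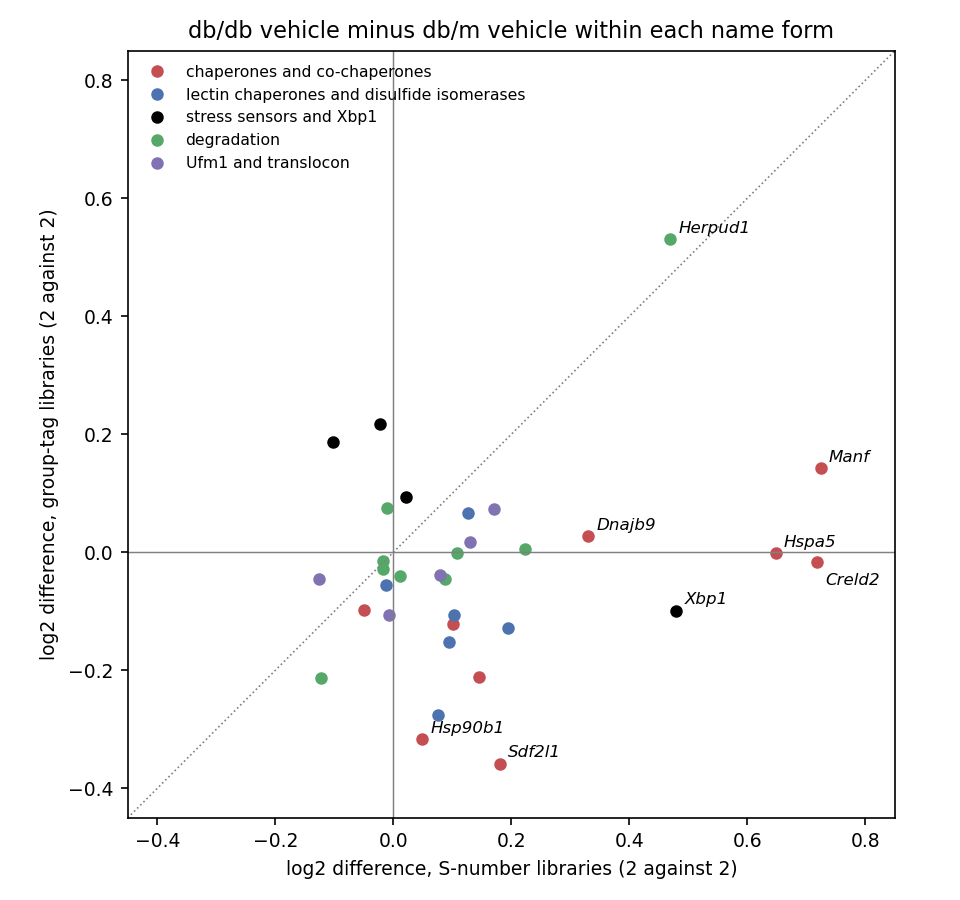
Each point is a member; the axes give its log2 difference of db/db vehicle minus db/m vehicle among S-number libraries (horizontal, 2 against 2) and among group-tag libraries (vertical, 2 against 2), coloured by role, with equality as the dotted line. Herpud1 lies near that line at 0.47 and 0.53, while Manf, Creld2, Hspa5, Xbp1 and Dnajb9 lie to the right, between -0.10 and 0.14 on the vertical axis.

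In the fit with group and name form as terms, members were mostly lower in the group-tag libraries. 30 of 33 were lower, with a median log2 difference of -0.13, against -0.02 over all genes, of which 46.3% were higher. 0 passed edgeR's adjusted test, against 6.97% of all genes. At an unadjusted edgeR p under 0.05, 1535 of all 13734 genes were lower and 1946 higher, together 25.3%. Of the members, 9 had such a p (27.3%), and all 9 were lower. Without puerarin S144 that count was 4, and without both libraries of high Xist it was 3. By DESeq2, 4 members passed at an adjusted p under 0.05 (Dnajb9, Dnajc3, Canx and Pdia4), which is 12.1% of the members and near the 13.7% of all genes. For Canx every S-number library lay above every group-tag library, 1 of 33 members (3.03%) against 1.58% of all genes. The lowering was not alike in the groups. The members' mean level, as defined above, was -0.07 and 0.04 in S-number and -0.07 and 0.00 in group-tag db/m libraries. In db/db vehicle it was 0.06 and 0.19 against -0.08 and -0.05. Under puerarin it was 0.19 against -0.14 and -0.06.

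Dnajb9, a BiP co-chaperone that delivers misfolded proteins for degradation (chromosome 12, 44205897 to 44210068, minus strand), had 51.2 and 65.9 CPM in the S-number db/m libraries (S184, S185), 79.0 and 67.6 in those of db/db vehicle (S152, S153) and 83.8 in puerarin S144. In the group-tag libraries it had 59.4 and 40.2 CPM in db/m (2, 3), 47.6 and 52.1 in db/db vehicle (1, 3) and 46.0 and 52.1 under puerarin (2, 3). The log2 difference between the forms was -0.49 (SE 0.13; edgeR adjusted p 0.0504). The ranges of the forms overlapped, with S184 below 3 of the group-tag libraries, and without both libraries of high Xist the difference was -0.39 (edgeR adjusted p 0.280).

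Dnajc3, a co-chaperone that also restrains Perk, had 165.7 and 204.7 CPM in S-number db/m libraries, 185.4 and 170.8 in those of db/db vehicle and 201.0 in puerarin S144. Its group-tag libraries had 170.5 and 142.4 CPM in db/m, 152.4 and 139.2 in db/db vehicle and 160.9 and 139.9 under puerarin, with a log2 difference of -0.30 (SE 0.09; edgeR adjusted p 0.0580). Canx, the membrane-bound lectin chaperone, is listed as 3 transcripts that share reads. It had 820.1, 867.7, 789.1, 887.2 and 840.4 CPM in the S-number libraries (S184, S185, S152, S153, S144). In the group-tag libraries it had 771.9 and 721.9 CPM in db/m, 719.0 and 717.3 in db/db vehicle and 733.0 and 675.4 under puerarin, with a log2 difference of -0.21 (SE 0.06; edgeR adjusted p 0.0657). Pdia4, an isomerase with several thioredoxin-like domains, had 127.7, 140.7, 128.8, 161.0 and 153.4 CPM in the S-number libraries in that order. Its group-tag libraries had 132.6 and 113.9 in db/m, 118.0 and 110.5 in db/db vehicle and 106.8 and 113.9 under puerarin, a difference of -0.29 (SE 0.09; edgeR adjusted p 0.0754). Atf6 differed by -0.24 (SE 0.09; edgeR adjusted p 0.121). For Dnajc3 and Pdia4 the forms overlapped through db/m 2 alone.

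Markers of tubule and other cells moved with the name form as well. Summed collecting duct markers lay at 92.3 to 350.5 CPM in S-number and 457.6 to 793.6 CPM in group-tag libraries, and those of loop and distal tubule at 1641.0 to 6087.8 and 6374.5 to 12455.0 CPM. All 9 loop and distal tubule markers were higher in group-tag libraries, of which 6 passed edgeR's adjusted test, and 8 of 9 collecting duct markers were higher, of which 3 of the 9 passed. Podocyte markers overlapped between the forms (16122.8 to 18974.4 and 12963.0 to 19095.7 CPM), and 11 of 12 were lower in group-tag libraries with 0 past the test. Glomerular endothelial markers were lower in group-tag libraries for 10 of 10 genes (5808.7 to 7512.2 CPM summed in S-number and 3608.3 to 6306.7 in group-tag libraries), with 0 past the adjusted test and 5 at an unadjusted p under 0.05. Proximal tubule markers were lower for 15 of 15 (2161.2 to 8197.0 and 1078.4 to 5977.8 CPM; median log2 difference -0.43), with 0 past the adjusted edgeR test and 1 at an unadjusted p under 0.05. Erythroid markers were lower for 6 of 6, with 4 past the adjusted test and a median of -1.06 (29.0 to 51.0 and 11.3 to 30.2 CPM). Puerarin S144, which was high for Hspa5 and Manf, was the lowest of all libraries in collecting duct and in loop and distal tubule markers. Db/m S185 was the next lowest in both (148.8 and 2604.8 CPM), with Hspa5 at 741.2 and Manf at 66.1 CPM. Db/db vehicle S153, with Hspa5 at 1190.2 and Manf at 111.7 CPM, had 348.6 and 4992.5 CPM of these markers. Db/db vehicle 1 had the highest myeloid markers (1280.3 CPM against 118.6 to 343.1 in the others). Their part in the members' differences was not tested.

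The degradation members other than Herpud1 and Derl2 gave these ranges. Over the 11 libraries, Sel1l and Syvn1, the core of the main ubiquitin ligase complex, ran from 205.1 to 259.7 and from 51.1 to 75.1 CPM. Edem1 and Edem2, which mark glycoproteins for disposal, ran from 78.7 to 131.6 and from 19.5 to 27.0 CPM, and the lectin Os9 from 354.9 to 415.3. Derl1 ran from 70.4 to 78.0 CPM and had the lowest variation of all members, with a coefficient of variation of 3.3%. Hspa5 had the highest at 30.4%, followed by Manf (26.5%), Dnajb9 (23.8%), Creld2 (23.1%) and Herpud1 (22.2%). The median was 10% over the members and 12.8% over the 8201 genes at least as abundant as the lowest member.

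The remaining chaperones and translocon genes overlapped between all 3 groups. Hsp90b1 ran from 433.8 to 607.6 CPM over the 11 libraries, Hyou1, which recharges BiP with nucleotide, from 104.0 to 138.4, and the co-chaperone Dnajb11 from 174.0 to 229.6. Its partner Sdf2l1 ran from 14.3 to 28.2 CPM, Calr from 403.7 to 578.9 and Pdia3 from 297.3 to 393.3. Sec61a1, the channel's core, ran from 102.7 to 123.7 CPM, Ssr2 from 42.8 to 55.2 and Ufm1, a ubiquitin-like protein that modifies ribosomes at the ER, from 45.7 to 60.2.

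Across the 11 libraries, the members whose log2 CPM was most like that of Hspa5 were Manf (Pearson r 0.93), Creld2 (0.88), Pdia4 (0.86), Xbp1 (0.85) and Dnajb9 (0.83). The median over the other members was 0.55 and the lowest value was -0.17, for Os9. These values are a description, since the libraries share group and name form. The 10 members with ERSE or ERSE-II had a median log2 difference of db/db over db/m of 0.15 in the S-number libraries and -0.08 in the group-tag libraries. The 17 members with a window but neither element had 0.09 and -0.03. Both sets included genes of either sign, and Manf, Hyou1, Atf6, Sec61a1, Derl1 and Ssr2 had no window.

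The wider ER stress pathway was followed in 10 lists of 169 measured genes. By edgeR's adjusted test 0 of 169 passed in each of the 3 group comparisons. The number with an unadjusted p under 0.05 was 14 for db/db over db/m (8.28%), 5 for puerarin over vehicle (2.96%) and 15 for puerarin over db/m (8.88%), each below the share of all genes. By DESeq2, 3 passed for db/db over db/m (Creb3l1, Itpr3 and Nupr1), 0 for puerarin over vehicle and 2 for puerarin over db/m (Fam134a and Nupr1). These are 1.78%, 0% and 1.18% of the 169 genes, against 2.11%, 0.109% and 2.16% of all genes by DESeq2. By list, the genes with an unadjusted edgeR p under 0.05 in db/db over db/m are set beside 10.3% of all genes. They were 2 of 16 in the Perk and Atf4 branch (12.5%) and 1 of 6 in the Atf6 family and its proteases (16.7%). They were 2 of 32 among other folding enzymes (6.25%), 2 of 25 among other degradation genes (8%) and 1 of 8 in glycan trimming (12.5%). In translocation and glycosylation they were 0 of 33, in ufmylation 1 of 7 (14.3%) and among ER-phagy receptors 1 of 8 (12.5%). They were 3 of 19 among calcium and death regulators (15.8%) and 1 of 15 among heat shock genes (6.67%). Each share above that of all genes rests on 1 to 3 genes. The Perk effectors Atf4 and Ddit3 ran from 164.2 to 249.6 and from 25.4 to 50.0 CPM, both with their highest value in puerarin S144.

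Nupr1, a stress-induced nuclear protein of the Perk and Atf4 branch, had the smallest p of the 169 genes in both comparisons with db/m. Its CPM was 133.0 (S184), 125.9 (S185), 158.6 (2) and 160.9 (3) in db/m vehicle. It was 251.6 (S152), 394.0 (S153), 237.9 (1) and 263.7 (3) in db/db vehicle, and 360.7 (S144), 281.7 (2) and 248.8 (3) under puerarin. All 7 db/db libraries lay above all 4 db/m libraries, in both name forms. Of all genes, 2.48% had db/db vehicle wholly above db/m vehicle and 3.73% had puerarin wholly above it. The share with all 7 db/db libraries above db/m was not counted, and it can be no larger than 2.48%. Nupr1 was named for its small p, so its separation is a description. On vehicle its log2 difference over db/m was 1.28 in the S-number and 0.65 in the group-tag libraries. The log2 fold change was 0.97 (SE 0.18; edgeR adjusted p 0.0939) on vehicle and 1.04 (SE 0.19; edgeR adjusted p 0.0656) with puerarin, both against db/m, and 0.07 (SE 0.19; edgeR adjusted p 0.988) between puerarin and vehicle. By DESeq2, the adjusted p was 0.000102 and 9.19e-05 for the comparisons with db/m. Without db/db vehicle 1, the edgeR adjusted p with puerarin was 0.0491.

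Of the other pathway genes, the calcium channel gene Itpr3 had a log2 fold change in db/db over db/m of -0.70 (SE 0.15; edgeR adjusted p 0.142) and the Atf6-related factor Creb3l1 of -0.64 (SE 0.14; edgeR adjusted p 0.138). Sesn2, an Atf4 target, had 0.42 (SE 0.15; edgeR adjusted p 0.372) on vehicle and -0.49 (SE 0.17; edgeR adjusted p 0.967) for puerarin over vehicle. None of these passed edgeR's test.

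Between the name forms, 13 of the 169 genes passed edgeR's adjusted test, a share of 7.69% that is near the 6.97% of all genes. Of 15 heat shock genes of the cytosol and mitochondria 13 were lower in group-tag libraries, with a median log2 difference of -0.46, 4 of them past the test. Hspa1a and Hspa1b, inducible Hsp70 genes, differed by -1.47 (SE 0.34; edgeR adjusted p 0.0323) and by -1.35 (edgeR adjusted p 0.0281); they are near-identical copies, so their split is uncertain. Their co-chaperones Dnajb1 and Dnaja1 differed by -0.60 (edgeR adjusted p 0.0275) and -0.61 (edgeR adjusted p 0.0459). These calls depended on the libraries included. Without puerarin S144 all 4 lost the call, with edgeR adjusted p of 0.154, 0.139, 0.101 and 0.206, and without db/db vehicle 3 or db/m vehicle 3 all 4 lost it too. Of the 11 libraries, leaving out any of 6 ended the call of Hspa1a, any of 4 that of Hspa1b, any of 7 that of Dnajb1 and any of 9 that of Dnaja1, and the highest adjusted p came without S144 in each case. The other 9 were Atf3, Pdia5, Fkbp7, Selenof, Spcs1, Spcs2 and Mcfd2, which were lower in group-tag libraries, and Creb3l1 and Itpr2, which were higher. Each of these 9 also lost the call without S144.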

How the data were processed

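RNA of isolated glomeruli was sequenced as 11 libraries. The deposited counts were whole reads for each of 22320 RefSeq transcripts in 15 columns, of which 4 fit no sample's labels and were set aside. Log2 columns that the authors deposited beside them hold log2 count plus 1 constant per library and entered no test. BWA, limma and mm10 are named, per the submitters' processing notes; how reads were assigned, and the strand, are not given in the sources used here. Start positions: the table counts starts from 0, and 1 was added.

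Counts were summed per symbol (50 symbols turned into dates were restored by transcript identifier, and 13 blank cells were taken as 0). 9 members have more than 1 transcript, and in 6 the highest pair lay within 10%, so shared reads count more than once. Genes were tested in R 4.3.3 with edgeR 4.0.16 (TMM, then glmQLFTest after glmQLFit). The model held group plus name form over the 11 libraries, with a count of at least 1 in 3 libraries, 7 residual degrees of freedom and Benjamini-Hochberg adjustment over 13734 genes. The design assumed log values unless counts were found. P-values cover the spread between samples, which may be technical. Alternatives included DESeq2 1.42.0, other filters, left-out libraries and a replicate block; scripts were tested on simulated data.

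The members and lists were chosen with earlier results of these data known. Full statistics are given for the 5 members of smallest p in each comparison, values in every library for these and for Hspa5, Xbp1, Ern1, Atf6 and Eif2ak3, and pathway genes by p.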

Additional observations from a re-analysis of the deposited data

Results flagged for a closer look

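In 66 groups of 4 libraries (33 members in db/m and db/db vehicle), 2 single libraries stood far from the others of their group; chance alone gives about 1 such case in 20 groups. Calr in db/m vehicle 3 had 492.2 CPM, while the other db/m libraries had 440.0 to 444.6. P4hb in db/db vehicle S153 had 433.4 CPM, while the other db/db vehicle libraries had 373.2 to 383.1.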

How the results depend on the processing

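No member passed the adjusted edgeR or DESeq2 test in the 3 group comparisons under any alternative. The median over the members lay between -0.04 and 0.08 for db/db over db/m, between -0.08 and 0.12 for puerarin over vehicle and between -0.09 and 0.17 for puerarin over db/m, so its sign was not stable. Between the name forms, 4 members passed with DESeq2 and 0 to 4 when single libraries were left out (4 without db/m S184, 1 without db/db vehicle 1, 1 without db/m 2). The count at an unadjusted p under 0.05 moved as follows. For db/db over db/m (2 members) it was 1 without the name form term, 5 in S-number and 0 in group-tag libraries alone, and 1 to 4 when single libraries were left out; in group-tag libraries alone Creld2 was at -0.018 and Hspa5 at -0.011. For puerarin over vehicle (0) it was 0 to 1 with single libraries left out. In S-number libraries alone, or without both libraries of high Xist, puerarin S144 is the only treated library. No count is given there for the puerarin comparisons, and the S-number median for puerarin over db/m was 0.17. For puerarin over db/m (0) the count was 1 with only the 2 groups fitted and 0 to 2 with single libraries left out. For the name forms (9) it was 3 without both libraries of high Xist, an alternative chosen after seeing the data that also put the median for puerarin over vehicle at 0.12, and 4 without puerarin S144, up to 11 otherwise. For the interaction (1) it was 2 with DESeq2, 2 with only the 2 groups fitted and 0 to 4 with single libraries left out. The cause was not tested. With the replicate block, 1 member had an unadjusted p under 0.05 for puerarin over vehicle and 1 for puerarin over db/m; the labels do not say that the numbers pair samples, and the difference of 2 minus 3 correlated by only 0.06 between puerarin and db/m.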
